A study of Mus musculus with 12 samples.

Results

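Kinesins are motor proteins that walk along microtubules using the energy of ATP. Some of them build and drive the mitotic spindle, pull or hold chromosomes, and organise the midzone where a dividing cell is cut apart, and their transcripts and proteins usually rise toward mitosis. Others carry vesicles, organelles, receptors and mRNA through the cytoplasm between divisions, and a further set works in cilia or in signalling. A mouse embryo at the 2-cell stage has passed its first division on kinesins that the egg supplied, while maternal transcripts are being degraded and the embryonic genome is being switched on.

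The genes described here are those on the array with a Kif symbol, one probe set per gene. They number 37 of 18163 genes with a single symbol in the platform annotation. By known function 13 are mitotic, 16 are transport kinesins and 8 belong to cilia, signalling or neither. Their transcripts were measured by 99 probe sets (30 mitotic, 57 transport and 12 other), and each gene was represented by the probe set with the highest mean log2 value over the 12 arrays. On that probe set 32 of 37 were in the brighter part of the probe sets (mean log2 value at or above the median), and Kif15, Kif2b, Kif28, Kif1a and Kif6 were not.

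Embryos came from wild type F1 (C57BL6xDBA/2) females of 3 to 5 weeks, superovulated and mated with wild type males, with each pool drawn from 3 to 6 females. Oct4-MO embryos were injected at the 1-cell stage with a morpholino oligonucleotide (MO), a synthetic antisense oligomer that blocks translation of its target mRNA, here that of the transcription factor Oct4. Ccna2-MO embryos received an MO against cyclin A2, a partner of the cell cycle kinases, which served the study as the injected comparison. The labels give 0.6 mM for both, while the study's methods give a higher usual concentration for Ccna2-MO. Each knockdown had its own uninjected embryos, taken from the same embryo pool and cultured in parallel, and no array of embryos injected with a control MO was analysed here. All groups were collected at the mid-2-cell stage, with 3 arrays per group and 20 pooled embryos per array. The question put to these genes was whether mitotic and transport kinesins differed between each knockdown and its controls, and between the knockdowns.

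The deposited value of a probe set is a linear intensity from dChip, and fold changes are differences of log2(value + 16), which understate the change of a dim probe set. SE stands for the standard error. A change was called at a limma p below 0.05 after Benjamini-Hochberg adjustment over 44937 probe sets. The p-values measure the spread between 3 pools per group. In pooled embryos, fewer embryos or cells with a transcript and less of it per cell cannot be told apart. Correlations between arrays of a group were 0.874 to 0.951 over the brighter part of the array. The targeted transcripts check no label here, since an MO need not lower its mRNA: Pou5f1, which encodes Oct4, ranged from 1825 to 2466 in Oct4-MO pools and from 1798 to 2112 in their uninjected pools, and Ccna2 from 3183 to 4398 in Ccna2-MO pools and from 3444 to 4222 in theirs. Summed over 9 measured oocyte and 2-cell markers of 10 listed, levels were 14902 to 17042 in Oct4-MO pools against 17721 to 18313 in their controls, and 18358 to 19773 in Ccna2-MO pools against 19873 to 20381 in theirs, lower without overlap in both. A sum follows its brightest genes, and most of the markers did not fall. By gene, 6 were above 0 and 3 below in Oct4-MO embryos (median log2 fold change 0.086). In Ccna2-MO embryos 5 were above 0 and 4 below (median 0.0008). Of these 9, Trim43a was called lower in Oct4-MO embryos (log2 fold change -1.12, adjusted p = 0.0223 by limma) and Zar1 higher in Ccna2-MO embryos (2.19, adjusted p = 0.0328). The sum of 9 measured cumulus and granulosa markers of 10 listed was 366 to 614 in Oct4-MO pools against 211 to 294 in their controls, and 302 to 416 in Ccna2-MO pools against 165 to 321 in theirs. Fshr and Inhba stayed under 16 on all arrays, and the other measured ones did not. Ptx3 reached 16.9, Has2 32.6, Tnfaip6 38.8, Amh 67.5, Foxl2 71.6, Star 125 and Cyp11a1 442. The part of these markers in the kinesin values was not tested.

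Promoters of the members are shown first, since many of the mitotic genes share a short run of letters near their start. Genes that peak in G2 and mitosis often carry the cell cycle homology region (CHR), a short element close to the transcription start, and upstream CCAAT boxes. RefSeq promoters (build GRCm38.p6, 250 bases before to 50 after the start) were matched by gene identifier for 31 of 37 members. Those of Kif13b, Kif20a, Kif21b, Kif28, Kif5a and Kif5b were not analysed here. The letters TTTGAA, read on both strands so that TTCAAA counts too, stood in the promoter of 9 of 12 mitotic genes (75%), namely Kif11, Kif14, Kif15, Kif18b, Kif20b, Kif22, Kif23, Kif2c and Kif4. They stood in 1 of 11 transport genes (9.09%), Kif1a, and in 2 of 8 others (25%), Kif26b and Kif27. Of all 32851 promoters 17.9% held them, or 20.2% of genes. Within 30 bases of the start, a range chosen after the positions were seen, the match lay in 7 of 12 mitotic genes (58.3%), 0 of 11 transport genes and 1 of 8 others (12.5%), against 3.66% of all genes. Windows of 30 bases are given for Kif11, Kif22 and Kif15, where the match begins 19, 17 and 19 bases before the start, and for Kif1a, the transport gene that held it, 44 bases before the start. Each runs 5′ to 3′ on the gene's strand, with the match in capitals.
Kif11, chr19:37376351-37376380 (+): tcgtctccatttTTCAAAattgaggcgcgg
Kif22, chr7:127042420-127042449 (-): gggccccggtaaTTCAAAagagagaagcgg
Kif15, chr9:122951050-122951079 (+): tggggcgccaaaTTCAAAtctgcggccatc
Kif1a, chr1:93082507-93082536 (-): tttgacagcctcTTTGAAcattgctcctaa

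The variant TTCGAA, which cannot share its position with TTTGAA, was found in 1 member, Kif24, and in 1.8% of all genes with a promoter. CCAAT, read on both strands and able to share an end letter with TTTGAA, stood in 7 of 12 mitotic genes (58.3%), 3 of 11 transport genes (27.3%) and 4 of 8 others (50%), against 41.1% of all genes with a promoter. The octamer ATGCAAAT, the sequence bound by Oct4 and related POU factors, was in 0 of 31 members and in 1.97% of all genes with a promoter. These are matches of letters in a short window, and no binding was measured.

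Over all 37 kinesins, no gene passed the adjusted test on its brightest probe set in either knockdown. In Oct4-MO embryos 0 of 37 were called by limma, where 0.0936% of all genes were. At an unadjusted p below 0.05, 4 were lower (Kif11, Kif4, Kif18b and Kif27), beside 5.96% of all genes, and 1 was higher (Kif3a), beside 4.66%. In Ccna2-MO embryos 0 of 37 were called, where 0.93% of all genes were. Unadjusted, 5 were lower (Kif11, Kif20a, Kif4, Kif13b and Kif24), beside 8.5% of all genes, and 4 were higher (Kif2a, Kif17, Kif13a and Kif3a), beside 8.22%. An unpaired t-test with Benjamini-Hochberg adjustment called 0 of 37 in each knockdown, as it called 0% of all genes. Its unadjusted p was below 0.05 for 7 genes with Oct4-MO and 5 with Ccna2-MO, beside 11.2% and 11% of all genes. The study's own ranking combined a t-statistic with fold changes and a permuted false discovery rate, and was not run here.

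**Figure D1:**
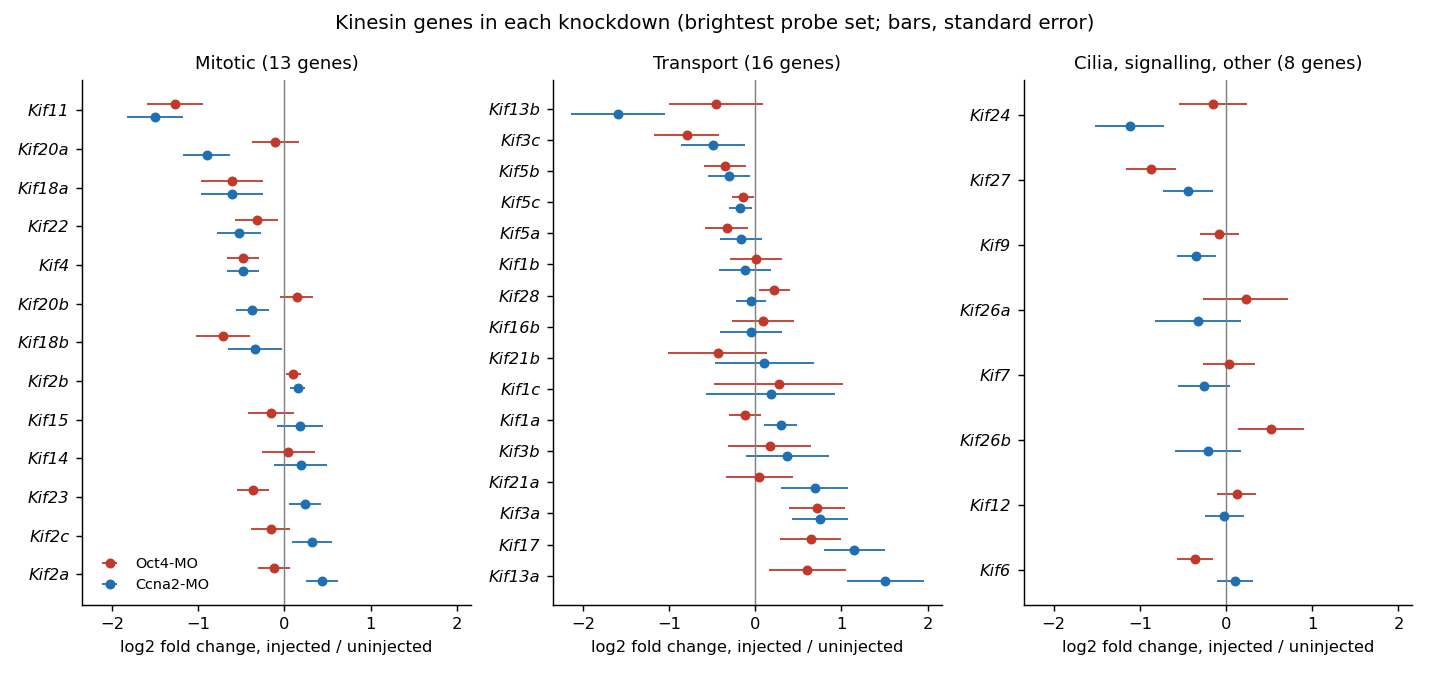
Log2 fold change of each of the 37 kinesin genes in Oct4-MO (red) and Ccna2-MO (blue) embryos against their own uninjected embryos, on the brightest probe set of the gene, by class; points are estimates over 3 arrays per group and bars are standard errors. Kif11 has the lowest mitotic estimate in both knockdowns, and the transport genes spread to both sides of 0, from Kif13b at -1.59 to Kif13a at 1.51 in Ccna2-MO embryos.

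The pools of a group and those of its controls did not overlap for 10 kinesins in Oct4-MO embryos, 8 lower and 2 higher, while 9.57% of all genes were lower and 9.21% higher without overlap. In Ccna2-MO embryos 7 were lower and 4 higher, beside 9.29% and 9.89% of all genes. By class, 5 of 13 mitotic genes were lower without overlap in Oct4-MO embryos and 3 in Ccna2-MO embryos, and 1 was higher in each. Of 16 transport genes 1 was lower and 1 higher in Oct4-MO embryos, and 1 was lower and 3 higher in Ccna2-MO embryos.

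The mitotic kinesins had a median log2 fold change of -0.16 in Oct4-MO embryos, with 10 of 13 below 0, and of -0.35 in Ccna2-MO embryos, with 7 of 13 below 0. The transport kinesins had medians of 0.03 in both, with 7 and 8 of 16 below 0. The 8 others had medians of -0.02 and -0.29. Over all genes the medians were 0.01 and 0.03. The Ccna2-MO median of the mitotic genes was the value of 1 gene, Kif18b, the middle one of a class split to both sides of 0. This median was 0.01 without Ccna2-MO replicate 2, -0.41 without replicate 1 and -0.22 without replicate 3. Taken by pair of pools, the mitotic median was -0.20, -0.17 and -0.23 in the Oct4-MO pairs and 0.16, -0.21 and -0.18 in the Ccna2-MO pairs. The transport median was 0.01, -0.22 and -0.24 in the Oct4-MO pairs, below that from group means, and 0.19, 0.15 and -0.08 in the Ccna2-MO pairs. As ranges, the mitotic and transport pair medians thus overlapped in both knockdowns. Within pairs, the mitotic median lay below the transport median in every Ccna2-MO pair. In the Oct4-MO experiment it did so only in pair 1. This order was not tested.

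**Figure D2:**
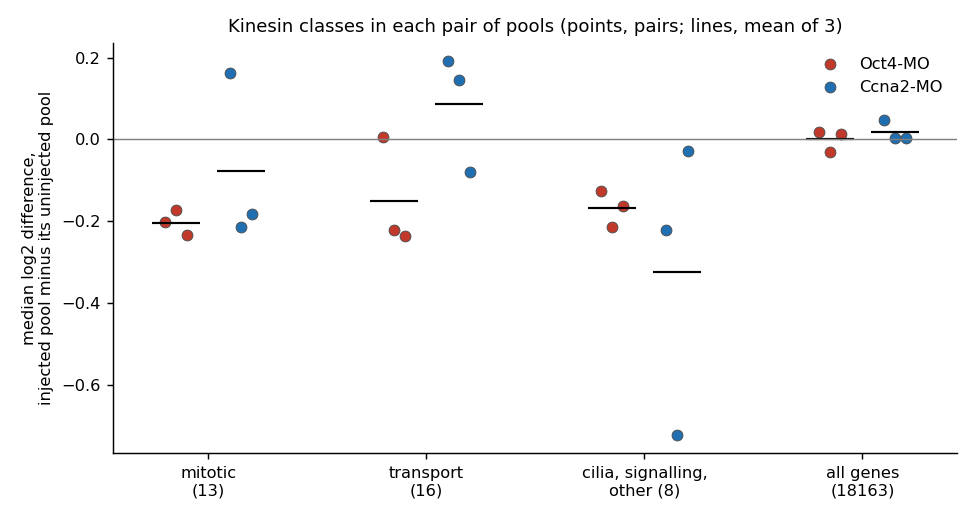
Median log2 difference between an injected pool and its own uninjected pool over the genes of each kinesin class and over all genes; each point is 1 of 3 pairs of pools, red for Oct4-MO and blue for Ccna2-MO, and lines are means of the pairs. The mitotic medians of the Oct4-MO pairs lie between -0.23 and -0.17, while in each experiment the transport medians cross the range of the mitotic ones.

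Among the spindle motors, Kif11 (Eg5), which slides antiparallel microtubules apart to separate the spindle poles, had the smallest p of the mitotic genes in both knockdowns. Its brightest probe set read 285, 271 and 175 in the Oct4-MO pools and 803, 401 and 666 in their uninjected pools. It read 352, 219 and 237 in the Ccna2-MO pools and 896, 538 and 968 in theirs. All 6 injected pools lay below all 6 uninjected pools. The log2 fold change was -1.27 ± 0.32 (SE, adjusted p = 0.182) in Oct4-MO pools and -1.50 ± 0.32 (SE, adjusted p = 0.055) in Ccna2-MO embryos, so neither passed. With all 6 uninjected arrays as controls of each knockdown, both passed. That setting brings in controls of the other experiment, and uninjected Kif11 was 0.37 higher on the log2 scale in the Ccna2-MO experiment. The share of all genes called in that setting was not computed.

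A second probe set of Kif11, 1452314_at, did pass in Ccna2-MO embryos. It read 18.6, 45.9 and 72.7 in Ccna2-MO pools and 175, 273 and 206 in their controls, a log2 fold change of -2.01 ± 0.39 (SE, adjusted p = 0.0388 by limma). With the pair of pools as a block its adjusted p was 0.0542, above the threshold, and it passed in 9 of the 23 alternative settings run. In Oct4-MO pools it read 59.4, 35.2 and 77.1, against 158, 80.8 and 114, and did not pass (adjusted p = 0.516). The dimmest, 1435306_a_at, read 21.3, 13.7 and 27.2 in Ccna2-MO pools and 12.4, 39.5 and 126 in their controls, which overlap. Kif11 spans chr19:37376382-37421863 in GRCm38.p6; which part of the transcript each probe set reads was not analysed here.

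Kif22 (Kid), a chromosome-binding motor that pushes chromosome arms toward the spindle equator, was the other gene with called probe sets. Over all 99 probe sets, 3 were called in Ccna2-MO embryos (2 of Kif22 and 1 of Kif11, all lower), where 0.748% of all probe sets were called, and 0 in Oct4-MO embryos by limma, where 0.0734% were. At an unadjusted p below 0.05, 16 of the 99 were lower and 5 higher in Ccna2-MO embryos, beside 7.16% and 6.89% of all probe sets. In Oct4-MO embryos 15 were lower and 2 higher, beside 5.09% and 4.17%. Probe sets of a gene read the same transcripts and are not independent. Probe set 1423813_at of Kif22 read 203, 190.1 and 260.4 in Ccna2-MO pools and 722, 806 and 1047 in their controls. Every Ccna2-MO pool lay under every control pool, at a ratio of 0.268 taken back from the means of log2(value + 16). The log2 fold change was -1.90 ± 0.23 (SE, adjusted p = 0.00776 by limma), so Kif22 fell on this probe set. In Oct4-MO pools it read 362, 356 and 276, against 874, 734 and 599.9 in their controls, also without overlap (log2 fold change -1.11, adjusted p = 0.11), which did not pass.

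Probe set 1451128_s_at of Kif22 read 292, 250.1 and 329 in Ccna2-MO pools and 989.6, 887 and 947 in their controls, and fell by 1.65 on the log2 scale (SE 0.20, adjusted p = 0.00858). In Oct4-MO pools it read 398, 450.3 and 354, against 842, 654 and 559, and did not pass (adjusted p = 0.223). The probe set that represents the gene by the brightness rule, 1437716_x_at, read 1324, 861 and 1727 in Ccna2-MO pools and 1388, 1897 and 2256 in their controls. These overlapped, and the log2 fold change of -0.52 ± 0.25 (SE, adjusted p = 0.38) did not pass. The result for Kif22 therefore depends on the probe set. The ending of 1437716_x_at marks probes that can match other transcripts, and that of the called 1451128_s_at marks probes shared between transcripts. The annotation lists a pseudogene, Kif22-ps, at chr1:67585049-67587101, while Kif22 lies at chr7:127027729-127042467. Whether that copy adds to any of the Kif22 probe sets was not tested.

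**Figure D3:**
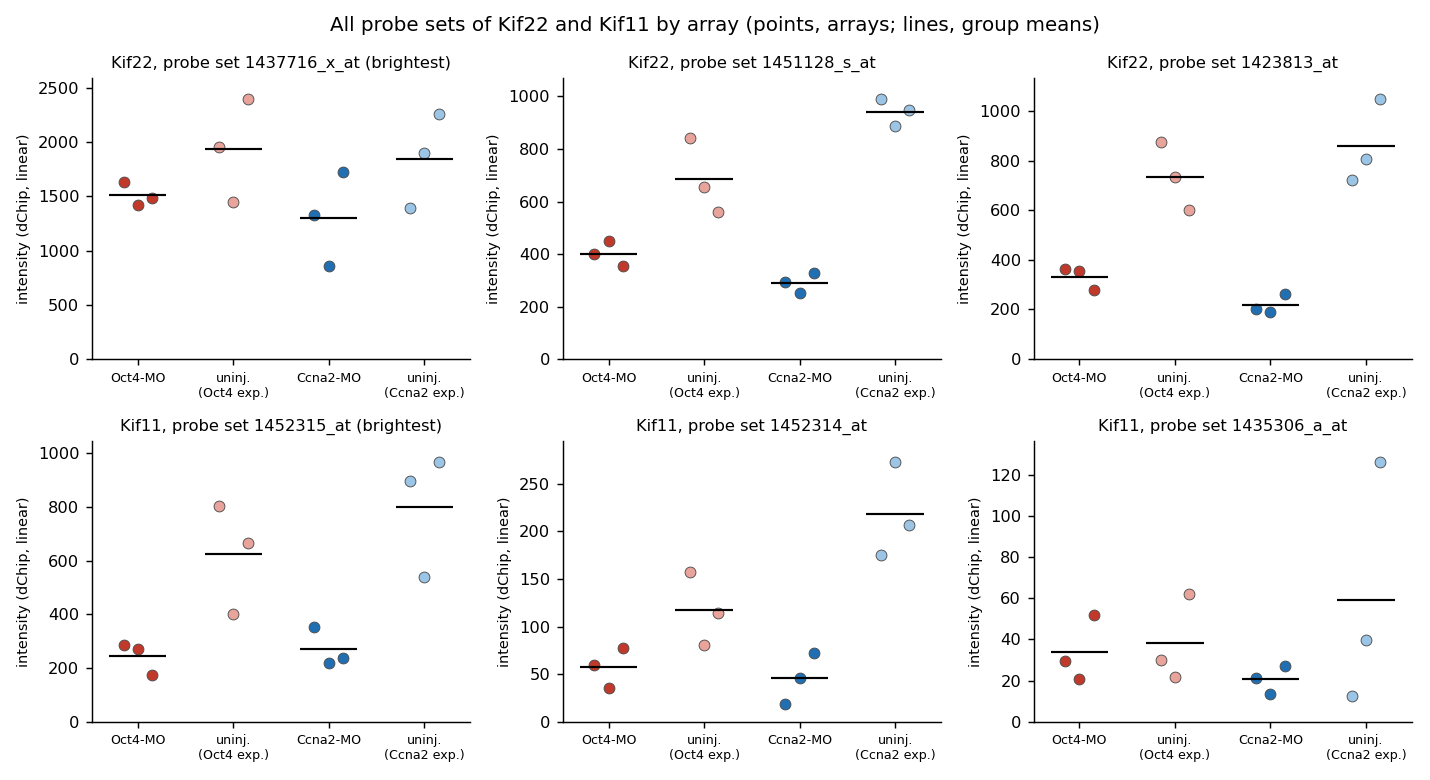
Intensity (linear, dChip) of the 3 probe sets of Kif22 (top) and of Kif11 (bottom) on each of the 12 arrays, by group; points are arrays and lines are group means, and each panel has its own axis from 0. On 1423813_at and 1451128_s_at of Kif22 all injected pools lie below the uninjected pools of both experiments, whereas the groups overlap on the brightest probe set of Kif22.

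Other motors of the early spindle and of chromosome movement gave smaller estimates. Kif15, which helps to keep spindle poles apart and was not in the brighter part of the probe sets, read 11.8, 22.7 and 20.5 in Oct4-MO pools against 21.4, 23.6 and 20.9, and 44, 25.8 and 20.4 in Ccna2-MO pools against 37.6, 19.4 and 16.7. Kif18a, which damps the movements of chromosomes at the spindle equator, read 95.3, 95.2 and 77.4 in Oct4-MO pools against 121, 106 and 227 in their controls, and 156, 101 and 169 in Ccna2-MO pools against 137, 226 and 338. The Kif15 groups overlapped in both experiments, and the Kif18a pools were all lower than their controls in Oct4-MO but not in Ccna2-MO embryos, the estimates being -0.60 (adjusted p = 0.68) and -0.61 (adjusted p = 0.491). Kif18b, which shortens astral microtubules, read 1108, 768 and 729 in Oct4-MO pools and 1534, 1333 and 1361 in their controls, a log2 fold change of -0.71 ± 0.31 (SE, adjusted p = 0.513). In Ccna2-MO pools it read 1889.6, 609 and 881 against 1252, 1252 and 1346, where 1 of 3 Ccna2-MO pools lay above every control.

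Kif4, a chromosome arm motor that also sets the length of midzone microtubules, read 441, 505 and 409.7 in Oct4-MO pools and 713, 571 and 631 in their controls. It read 426, 455 and 553 in Ccna2-MO pools and 747, 641 and 629.8 in theirs. No injected pool reached the level of its controls. The log2 fold changes were -0.48 and -0.48 (SE 0.18 each), with adjusted p of 0.426 and 0.252, and neither passed. The annotation lists a transcribed pseudogene, Kif4-ps, so the single probe set of Kif4 is uncertain in this respect.

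The motors of the midzone and of cytokinesis gave estimates of both signs. Kif20a, which brings the chromosomal passenger complex to the midzone, read 914, 769 and 708 in Ccna2-MO pools and 2379, 1254 and 1115 in their controls, without overlap (log2 fold change -0.90 ± 0.27 SE, adjusted p = 0.145). In Oct4-MO pools it read 1662, 932 and 1374 against 1538, 1245 and 1387, which overlap. The difference between the knockdown changes was -0.80 (95% interval -1.62 to 0.03), an interval that includes 0. Kif23 (Mklp1), a subunit of centralspindlin, read 1019.9, 938 and 732 in Oct4-MO pools and 1159.6, 1199 and 1093 in their controls, and 1522, 2342 and 1879 in Ccna2-MO pools and 1332, 1850.4 and 1649 in theirs. All Oct4-MO pools were below their controls, and each Ccna2-MO pool was above the control of its own pair, although the Ccna2-MO groups overlap.

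Kif14, which binds citron kinase at the midbody, and Kif20b, which acts late in cytokinesis, had estimates within 0.05 to 0.19 and -0.37 to 0.14, with overlapping pools in both knockdowns. Kif20b too depended on the probe set. Probe set 1440924_at read 584, 393 and 473 in Oct4-MO pools and 807, 805 and 885 in their controls, all lower (log2 fold change -0.78, adjusted p = 0.234), where the brightest probe set gave 0.14.

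The microtubule depolymerising kinesins, which shorten microtubules from their ends rather than walking, had estimates of both signs. Kif2a, which acts at spindle poles, read 1718, 1194 and 1609 in Ccna2-MO pools and 887, 1105 and 1332 in their controls (log2 fold change 0.44, adjusted p = 0.309), and the groups overlap. Kif2b stayed between 1 and 4.28 on all arrays, at the floor of the measurement, so its lack of overlap carries no level. Kif2c (MCAK), which corrects faulty kinetochore attachments, read 1066, 1136 and 1083 in Ccna2-MO pools and 733, 847 and 1072 in their controls on its brightest probe set. Its probe set 1437611_x_at read 167, 158 and 331 and 476, 472 and 1022 in the same pools. The estimates, 0.32 and -1.50, had opposite signs, and neither passed (adjusted p = 0.586 and 0.117).

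**Figure D4:**
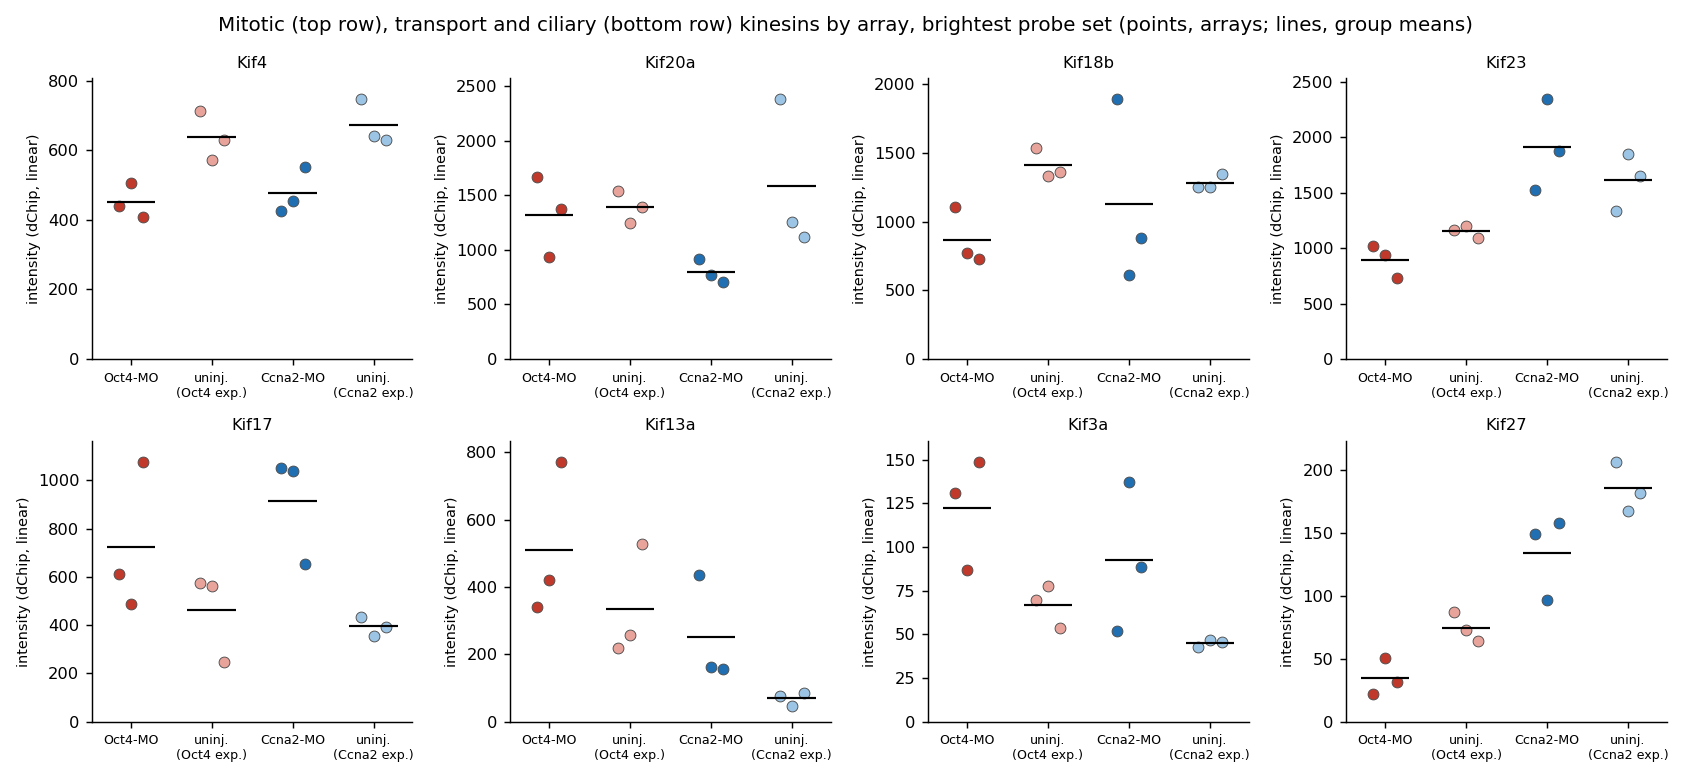
Intensity (linear, dChip) of 4 mitotic kinesins (top) and of 3 transport kinesins and the cilia-related Kif27 (bottom) on each of the 12 arrays; points are arrays, lines are group means, and each panel has its own axis from 0. Kif4 is lower in both injected groups, Kif20a in Ccna2-MO pools, and Kif17, Kif13a and Kif3a are higher in Ccna2-MO pools than in their controls, with wide spread between pools.

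Among the transport kinesins, the estimates farthest from 0 in Ccna2-MO embryos were those of Kif13b, Kif13a and Kif17. Kif17, which carries receptors in dendrites and works in cilia, read 1051, 1040.1 and 652 in Ccna2-MO pools and 435, 356 and 394 in their controls. The groups do not overlap, and the log2 fold change was 1.15 ± 0.35 (SE, adjusted p = 0.152), which did not pass. In Oct4-MO pools it read 612, 486 and 1076 against 577, 562 and 249, which overlap. Its other probe sets, 1419827_s_at and 1419826_at, gave 0.77 and 0.68 in Ccna2-MO embryos.

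Kif13a, which moves endosomes and lysosome-related cargo, read 435, 161 and 157 in Ccna2-MO pools and 77.7, 47.7 and 84.3 in their controls, a log2 fold change of 1.51 ± 0.45 (SE, adjusted p = 0.141). It read 341, 421 and 772 in Oct4-MO pools and 219, 258 and 529 in theirs. The Ccna2-MO pools lay above their own controls, and 2 of 3 lay below every uninjected pool of the Oct4-MO experiment. These values are from 1447853_x_at, whose ending, as for Kif22, marks probes that can match other transcripts. The next brightest probe set, 1455746_at, gave -0.27 in Ccna2-MO embryos, with the opposite sign. Probe set 1439532_s_at had a ratio of 1.07 in the same embryos. Kif13b, a close relative that carries membrane proteins, read 27.5, 10.6 and 75.7 in Ccna2-MO pools and 78.7, 78.2 and 311 in their controls (log2 fold change -1.59 ± 0.55 SE, adjusted p = 0.203), with 1 control pool far above the others.

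The heterotrimeric kinesin that carries cargo into cilia is built from Kif3a with Kif3b or Kif3c. Kif3a read 131, 87.1 and 149 in Oct4-MO pools and 69.8, 77.6 and 53.7 in their controls, and 51.8, 137 and 88.3 in Ccna2-MO pools and 42.9, 46.7 and 45.9 in theirs. On this probe set both injected groups lay above their controls, by 0.72 (adjusted p = 0.524) and 0.75 (adjusted p = 0.32) on the log2 scale, and neither passed. In Oct4-MO embryos its other bright probe sets, 1449841_at and 1420375_at, gave -0.16 and -0.33, and the mean of its probe sets gave 0.067. Kif3c read 147, 129 and 103 in Oct4-MO pools and 319.6, 188 and 200.4 in their controls, all lower (log2 fold change -0.80, adjusted p = 0.551). Kif3b had 0.17 and 0.37, with overlap in both.

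Conventional kinesin, the main carrier of organelles toward microtubule plus ends, has the heavy chains Kif5a, Kif5b and Kif5c. Kif5b, the form found in most tissues, read 902, 653 and 686 in Oct4-MO pools and 952, 835 and 1078 in their controls, which overlap, at a log2 fold change of -0.35 (adjusted p = 0.739). In Oct4-MO embryos its other probe sets 1418427_at, 1418428_at, 1418429_at and 1418430_at gave -0.41, -0.80, -0.72 and -0.42. Each had an unadjusted limma p below 0.05 and none was called, and the dim 1453524_at gave 0.17. In Ccna2-MO embryos all 6 Kif5b probe sets were below 0, from -0.79 to -0.16, and none was called. Kif5c had the tightest spread of the 3, at 1147, 1099.6 and 1132 in Oct4-MO pools against 1141, 1323 and 1271, and Kif5a read 72.7, 48.1 and 54.6 against 85.5, 64.3 and 82.2. On their brightest probe sets the remaining transport genes (Kif1a, Kif1b, Kif1c, Kif16b, Kif21a, Kif21b and Kif28) overlapped their controls in both knockdowns. Dimmer probe sets of Kif1b included exceptions. Probe set 1423994_at read 48.6, 89.9 and 63.5 in Oct4-MO pools and 152, 97.2 and 164 in their controls, all lower. Probe set 1455182_at read 199, 137 and 132 in Ccna2-MO pools and 256, 256 and 213 in theirs, also all lower. Neither was called. Of the 7 Kif1b probe sets, 7 were below 0 after Ccna2-MO and 3 after Oct4-MO.

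Of the other kinesins, Kif27, a relative of the hedgehog regulator Kif7 that is needed for motile cilia, read 22, 50.3 and 31.2 in Oct4-MO pools and 87.5, 72.6 and 63.9 in their controls, without overlap (log2 fold change -0.88 ± 0.29 SE, adjusted p = 0.339). In Ccna2-MO pools it read 149, 96.4 and 158 against 207, 168 and 182 (log2 fold change -0.44, adjusted p = 0.544). Every pool was lower than its controls, and neither change passed. Kif24, which restrains the start of ciliogenesis at the centriole, read 46.2, 81.6 and 128 in Ccna2-MO pools and 301, 149.5 and 154 in their controls (log2 fold change -1.12, adjusted p = 0.221). On its probe set 1431937_at the Oct4-MO pools read 339, 278 and 399 and their controls 133, 85.3 and 159, all higher (log2 fold change 1.34, adjusted p = 0.144), while the brightest probe set gave -0.15. Kif9, a kinesin of motile cilia and flagella, read 56.1, 57 and 63.4 in Ccna2-MO pools and 83.5, 77.9 and 75.8 in their controls, all lower (log2 fold change -0.35, adjusted p = 0.548). Kif6 read 17.5, 17.7 and 15 in Oct4-MO pools and 30.6, 25.4 and 22.7 in their controls, all lower (log2 fold change -0.37, adjusted p = 0.659). Neither passed. Kif7, which works at the tip of the primary cilium in hedgehog signalling, had 0.03 and -0.26 in Oct4-MO and Ccna2-MO embryos, Kif12 0.12 and -0.02, and Kif26b 0.52 and -0.21 as log2 fold changes, each with overlapping pools.

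The changes in the knockdowns were set against each other by the difference of the fold changes, Ccna2-MO minus Oct4-MO. For 0 of 37 kinesins did limma call this difference, as for 0% of all genes, and 1 gene, Kif23, had an unadjusted p below 0.05, beside 7.11% of all genes. The Kif23 difference was 0.60 (95% interval 0.04 to 1.17, adjusted p = 0.734). For Kif11 it was -0.23 (95% interval -1.22 to 0.75) and for Kif4 0.001 (95% interval -0.56 to 0.56), ranges that leave room for sizeable differences either way. The called probe sets of Kif22 had differences of -0.79 for 1423813_at and -0.91 for 1451128_s_at, with adjusted p of 0.712 and 0.636, so a larger fall in Ccna2-MO than in Oct4-MO embryos was not established.

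The uninjected embryos of the experiments served as a gauge of how far kinesin values differ without any injection. Between the uninjected pools 0 of 37 genes were called by limma, where 0.116% of all genes were called. At an unadjusted p below 0.05, 2 were lower in the Ccna2-MO experiment (Kif13a and Kif5a), beside 6.32% of all genes, and 3 were higher (Kif27, Kif26a and Kif23), beside 5.67%. The t-test gave 7 unadjusted, beside 14.3% of all genes, and 0 adjusted. Kif13a differed by -1.96 on the log2 scale (adjusted p = 0.142), Kif27 by 1.15 (adjusted p = 0.171), Kif26a by 1.10 and Kif5a by -0.91, the signs being Ccna2-MO experiment minus Oct4-MO experiment. These gaps between control groups exceeded in size both knockdown estimates of the same genes. Kif11 differed by 0.37 and Kif4 by 0.08 between the controls, and their pools overlapped.

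**Figure D5:**
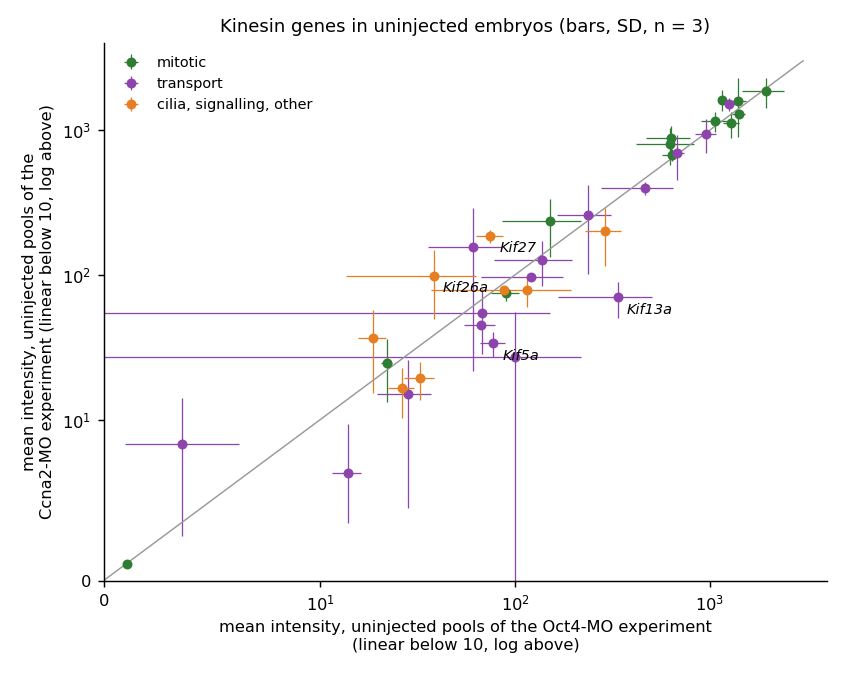
Mean intensity of each kinesin gene in the uninjected pools of the Oct4-MO experiment (x axis) and of the Ccna2-MO experiment (y axis), linear below 10 and logarithmic above; bars are SD over 3 arrays, the line marks equal values, and colours mark the classes. Kif13a and Kif5a lie below the line and Kif27 and Kif26a above it.

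Kinesins with other symbols and kinesin partners (light chains, adaptors and spindle regulators) were taken as a list of 22 genes, of which 21 were on the array. In Ccna2-MO embryos 2 were called lower and 0 higher, where 0.93% of all genes were called, and 7 were lower and 1 higher at an unadjusted p below 0.05, beside 8.5% and 8.22% of all genes. In Oct4-MO embryos 0 were called by limma, where 0.0936% of all genes were, and 4 were lower and 1 higher unadjusted, beside 5.96% and 4.66%. The list medians were -0.15 with Ccna2-MO and -0.36 with Oct4-MO, and those of all genes 0.03 and 0.01. Cenpe, a kinesin of the kinetochore whose symbol is outside the Kif series, read 595, 593 and 496 in Ccna2-MO pools and 1571, 1202 and 1244 in their controls, and fell by 1.22 on the log2 scale (SE 0.17, adjusted p = 0.0142). In Oct4-MO pools it read 638, 668 and 636 against 1063, 840.4 and 1209.8, also without overlap (log2 fold change -0.65, adjusted p = 0.216). Tpx2, which nucleates spindle microtubules and anchors the Kif11 and Kif15 motors, read 501, 513 and 297 in Ccna2-MO pools and 973, 893 and 862 in their controls, and fell by 1.07 (SE 0.21, adjusted p = 0.0423). With the pair as a block its adjusted p was 0.0653 and it was not called. Cenpe passed in 20 of 23 alternative settings, and not without uninjected replicate 1 of the Ccna2-MO experiment, whereas Tpx2 passed in 9.

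Cytoplasmic dynein with its cofactor dynactin, the motor that runs toward microtubule minus ends, was the list of 16 genes set beside the kinesins, with 15 on the array. The list median was 0.33 in Oct4-MO embryos and 0.32 in Ccna2-MO embryos. In Ccna2-MO embryos 1 was called higher and 0 lower, where 0.93% of all genes were called, and 2 were lower and 4 higher at an unadjusted limma p below 0.05, beside 8.5% and 8.22% of all genes. In Oct4-MO embryos 0 were called, where 0.0936% of all genes were, and 2 were lower and 0 higher unadjusted, beside 5.96% and 4.66%. The light chain Dynlt3 read 1100.2, 887 and 979 in Ccna2-MO pools and 514, 484 and 546 in their controls, and rose by 0.92 on the log2 scale (SE 0.17, adjusted p = 0.0369), a call that was lost with the pair as a block (adjusted p = 0.0667) and was made in 10 of 23 alternative settings. The light intermediate chain Dync1li1 had the smallest p of the list in Oct4-MO embryos, at 13.4, 12.5 and 10.3 against 47.3, 33.9 and 97.4 (log2 fold change -1.34, adjusted p = 0.332), and did not pass.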

How the data were processed

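RNA of 12 pools of mid-2-cell mouse embryos was amplified in 2 rounds from the equivalent of 10 embryos and hybridised to Affymetrix Mouse Genome 430 2.0 arrays, 3 per group. One linear intensity per probe set was deposited, which the authors had obtained by dChip normalization of all arrays. Its version and model options were not given in the sources used here. Samples were grouped by their labels. Of 45001 probe sets, 64 controls were left out. In the platform annotation 34849 of the rest had 1 gene symbol, 928 had several and were not named (1 of these lists Kif27), and 9160 had none.

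Values were taken as log2(value + 16). One linear model with 4 group means over 12 arrays was fitted with limma 3.58.1 in R 4.3.3, with an intensity trend. The contrasts were each knockdown against its uninjected embryos, the difference of the knockdown changes, and the uninjected groups against each other. An exact permutation test of 3 against 3 arrays cannot reach the threshold, so limma was used. The steps were tested on simulated data. On each array 39.3 to 42.7% of probe sets lay under 16, and the number of arrays limits the precision.

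The labels state that uninjected embryos were drawn from and cultured with the pool that was injected under the same number, so the numbers pair the samples. After group means were subtracted, paired arrays correlated at 0.083, 0.0308 and 0.00911 in the Oct4-MO and at -0.0128, 0.0841 and 0.114 in the Ccna2-MO experiment. The study's methods are unpaired, and the block was an alternative.

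Mitotic, transport and other kinesins, the partner and dynein lists and the markers were chosen with earlier results of these data known. Genes named with values were all mitotic kinesins, the 4 genes of smallest p per class and knockdown, and, in the partner and dynein lists, called genes or else that of smallest p. Genes singled out beyond this rule, and probe sets other than the brightest, were chosen after their values were seen.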

Additional observations from a re-analysis of the deposited data

Results flagged for a closer look

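For 3 mitotic kinesins, all pairs of pools in one knockdown moved one way and all pairs in the other knockdown moved the opposite way. The share of all genes with this pattern was not computed, so the count is not a result about kinesins. The Ccna2-MO change minus the Oct4-MO change on the log2 scale was 0.60 for Kif23 (adjusted p = 0.734 by limma), -0.51 for Kif20b (adjusted p = 0.778) and 0.34 for Kif15 (adjusted p = 0.891). The test of the difference did not pass for any of the 3. Kif15 was not in the brighter part of the probe sets, and Kif20b differed between its probe sets.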

How the results depend on the processing

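No kinesin was called in either knockdown on its brightest probe set. The count stayed 0 in each knockdown with the replicate block, with only the 6 arrays of a comparison and without the intensity trend. It stayed 0 with 1 or 64 added before log2 and with array weights. The unpaired t-test and the fits without any 1 replicate also gave 0 (range 0 to 0). With all 6 uninjected arrays as controls, 2 genes were called in Oct4-MO (Kif11 and Kif27) and 1 in Ccna2-MO embryos (Kif11). The log2 fold change of Kif27 was then -1.45 after Oct4-MO (-0.88 with matched controls) and 0.14 after Ccna2-MO (-0.44 with matched controls). In Ccna2-MO embryos 1 gene, Kif11, was called with the brighter part of the probe sets alone, with quantile normalization and with median centring, and 2, Kif11 and Kif22, when a gene's probe sets were averaged. After the data were seen, 2 probe set rules were added: without probe sets ending in _x_at 1 gene, Kif22, was called, and with any probe set of a gene 2, Kif22 and Kif11. For the settings that added calls, the share of all genes called was not computed. Whether these calls are more frequent among kinesins than among all genes is therefore unknown. For the difference between knockdowns and for the uninjected groups 0 were called in the alternatives run; no block could be fitted to the uninjected groups, which do not share embryos.

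The mitotic median in Oct4-MO embryos was -0.29 with all 6 uninjected arrays, -0.29 with 1 added, -0.32 in the brighter part, -0.10 with median centring, -0.19 with the mean of probe sets, and -0.31 to -0.16 without 1 replicate. In Ccna2-MO embryos it was -0.41 to 0.0099 without 1 replicate, the upper end without Ccna2-MO replicate 2. The transport median in Ccna2-MO embryos was -0.13 to 0.19 without 1 replicate, the ends being without uninjected replicate 1 and without uninjected replicate 3. The Kif22 probe set 1423813_at was called in Ccna2-MO embryos in 21 of 23 alternatives (adjusted p 0.00308 to 0.303), not with only the 6 arrays or the t-test, and 1451128_s_at in 20, failing also without uninjected replicate 1. In the same embryos the Kif11 probe set 1452314_at was called in 9 of 23 (adjusted p 0.0215 to 0.411), Tpx2 in 9 (0.0242 to 0.424), Dynlt3 in 10 (0.0208 to 0.304) and Cenpe in 20 (0.00818 to 0.330, failing with only the 6 arrays, with the t-test and without uninjected replicate 1). Among fits without 1 replicate, the 1452314_at call held only without Oct4-MO replicate 1 or Ccna2-MO replicate 3, the Tpx2 call only without Oct4-MO replicate 1 or Ccna2-MO replicate 1 or 3, and the Dynlt3 call only without Oct4-MO replicate 1, 2 or 3 or Ccna2-MO replicate 3. The replicate block ended the calls of 1452314_at, Tpx2 and Dynlt3 and changed no other call. Of 52 single-kinesin results 36 kept their sign throughout, and 1257 of 1294 alternatives left direction and side of the threshold as they were. These counts are no measure of stability, since none of the 52 was called in the main fit. Several settings also cannot change a fold change. They are the block, the t-test, the fit of 6 arrays, the fit without intensity trend, and fits without an array of the other experiment. The causes of the changes were not tested. With 3 arrays per group and many probe sets near background, modest changes of dim kinesins could not be measured.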
